A study of Mus musculus with 58 samples.

Results

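The 34 genes described here encode developmental transcription factors that Polycomb holds in a bivalent state in embryonic stem cells. They were chosen by name from a list of Polycomb-target lineage regulators and make up 34 of the 22556 genes counted. They were read in 58 libraries of chromatin-associated RNA (ChrRNA-seq), which samples transcripts still attached to chromatin and so lies close to transcription. The study asked how SPEN, through its SPOC domain, and Polycomb contribute to silencing by Xist in female mouse ES cells and during differentiation towards neural precursor cells (NPC). No histone mark was measured in these libraries, so the bivalent state in the name of the gene group could not be checked against them.

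In a bivalent promoter, H3K27me3 from Polycomb repressive complex 2 and H2AK119ub1 from Polycomb repressive complex 1 (PRC1) lie beside H3K4me3, the mark of active starts. Such promoters are usually rich in CpG, and their genes are transcribed at very low levels until a lineage is chosen. PCGF3 and PCGF5 are subunits of variant PRC1 complexes that Xist uses to bring Polycomb to the inactive X, and they also place H2AK119ub1 broadly over the genome.

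All libraries came from 1 hybrid genotype, 129S x Cast, with the Xist promoter replaced by a TetOn promoter on the 129S allele, here called Dom. Doxycycline at 1 ug/mL switched Xist on for 1 day in ES cells, or for 3 or 6 days in N2B27 medium for NPC, and ES day 0 had none. The 6 lines were the parental iXist-ChrX-Dom line (WT), a line with point mutations in the SPOC domain (SPOC, clones C11, D9 and H1 in ES and D9 and H1 in NPC), a line with FKBP12 degron tags on PCGF3 and PCGF5 (PCGF35), the same tagged line with the SPOC mutation (PCGF35_SPOC, clones F10 and F6), a line lacking the part of Xist that recruits Polycomb (DelPID) and DelPID_SPOC, in which sample titles add the SPOC mutation to that deletion (clones A8 and G3). PCGF35 and PCGF35_SPOC were left untreated or given 100 uM dTAG-13, which degrades the tagged proteins, from 12 h before doxycycline. Of the 28 groups, 26 had 2 libraries and 2 (SPOC at ES day 0 and at ES day 1) had 3. WT and DelPID were read only as NPC, and each of WT, PCGF35 and DelPID is 1 line grown more than once. Lines with the SPOC mutation were read as separate clones, so differences between their libraries include those between clones. The study describes a DelPID_SPOC clone G, here taken to be G3, as tetraploid. Cells were kept on fibroblast feeders that were removed by pre-plating before each experiment.

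Library depth ran from 2.29 M to 30.0 M fragments (M stands for mega), with a median of 15.9 M. The DelPID libraries numbered 1 had 2.29 M at NPC day 6 and 6.37 M at NPC day 3, and the other libraries had at least 9.19 M. The 10 highest genes took 14.1% of the fragments in the shallowest library and 2.92% in the least affected. Xist lay between 34.2 and 135 CPM (fragments of a gene per M fragments of the library) at ES day 0 and between 2380 and 5350 CPM at ES day 1. Libraries stood apart in its allele. In treated PCGF35 library 1, 20.6% of the allele-assigned Xist fragments at ES day 1 and 37.6% at ES day 0 came from Cast, the allele without the TetOn promoter, against at most 0.804% in every other library after doxycycline. At ES day 0, where Xist is low, SPOC libraries 2 and 3 had 45.5% and 20.4% from Cast. Without either of these libraries the dTAG-13 comparisons they enter still called 0 members. With the ES day 0 one, 10 and 11 of 19 members were called at NPC day 3 and NPC day 6, beside 55.6% and 58.9% of all genes. Without it, NPC day 3 gave 10 calls and NPC day 6 gave 12 of 22 members then tested. The calls of Irx3 and Irx5 on day 3 and of Msx2 on day 6 ended, and Mixl1 and Pax9, which then passed the filter, were called on both days. The cause was not tested. RNA of Pcgf3 and Pcgf5 does not check a degron that acts on protein. Their chromatin RNA was present in every library, at 55.0 to 112 CPM for Pcgf3. In bulk RNA of this kind, fewer cells of a type and less RNA per cell cannot be told apart.

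The NPC label was set against markers. The 9 pluripotency markers, summed, stood at 1330 to 2300 CPM in ES day 0 libraries and at 368 to 1370 CPM at NPC day 6, and 8 of the 9 fell at both NPC days. Pou5f1 was the exception, with a median of 45.9 CPM at ES day 0 and 61.1 CPM at NPC day 6. Of the neural precursor markers, Sox1 had no fragment in any library, Fabp7 reached at most 2.25 CPM and Hes5 at most 0.436 CPM. Of the 6 neural markers tested, Nes (median 17.9 CPM at ES day 0 and 41.1 CPM at NPC day 6), Vim (18 and 45.1 CPM) and Cdh2 (54.8 and 130 CPM), which other early cells also express, rose at NPC day 6. Pax6 (1.34 and 2.52 CPM), Ncam1 (447 and 545 CPM) and Fabp7 did not pass on that day. Pax6 did rise at NPC day 3 (median 3.07 CPM, log2 fold change 0.79, adjusted p = 0.0215, edgeR). The libraries are therefore named below by day of the NPC protocol.

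Promoter sequence was taken from RefSeq (GRCm38.p6) for the 23 members with an entry there, as the bases before the gene start (250 on the minus strand and 249 on the plus strand for those printed). It is shown because CpG content is the sequence feature most tied to bivalency. Members had a median of 16 CpG in these bases, against 18 in 66 other Polycomb-target lineage factors and 10 in 16598 genes with an entry. At least 10 CpG were present in 78.3% of members, 80.3% of the other factors and 51.9% of all genes. The letters TATAAA, searched on both strands, were present in 3 members (13%) and in 11.9% of all genes. Among the members with fragments in all 58 libraries, the 4 most abundant with an entry that begins at the counted gene start are printed 5′ to 3′ on the gene's strand, with CG in capitals. Gata4, Gata6 and Pax3 had no entry, and the entry of Pax2 began 487 bases from the counted start. Tbx20 lies at chr9:24774304-24774553 on the minus strand (22 CpG), Eomes at chr9:118477939-118478187 on the plus strand (8 CpG), T at chr17:8434173-8434421 on the plus strand (14 CpG) and Gata3 at chr2:9878601-9878850 on the minus strand (19 CpG). Of these promoters, Eomes had the fewest CpG and T, Tbx20 and Gata3 had more than the median of all genes.
Tbx20: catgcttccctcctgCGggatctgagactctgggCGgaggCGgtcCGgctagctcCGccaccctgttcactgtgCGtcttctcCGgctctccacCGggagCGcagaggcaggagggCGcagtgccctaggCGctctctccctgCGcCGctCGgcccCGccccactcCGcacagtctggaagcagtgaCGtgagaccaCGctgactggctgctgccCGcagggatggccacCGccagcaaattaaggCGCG
Eomes: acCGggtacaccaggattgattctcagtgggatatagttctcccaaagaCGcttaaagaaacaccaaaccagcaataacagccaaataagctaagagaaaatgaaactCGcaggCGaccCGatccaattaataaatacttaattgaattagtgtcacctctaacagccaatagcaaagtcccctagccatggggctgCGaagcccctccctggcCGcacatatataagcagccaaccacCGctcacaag
T: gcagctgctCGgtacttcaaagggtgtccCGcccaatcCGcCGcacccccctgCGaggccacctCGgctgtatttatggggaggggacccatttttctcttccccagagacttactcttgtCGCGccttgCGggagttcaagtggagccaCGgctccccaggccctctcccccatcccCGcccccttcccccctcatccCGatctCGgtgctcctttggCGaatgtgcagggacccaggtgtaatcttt
Gata3: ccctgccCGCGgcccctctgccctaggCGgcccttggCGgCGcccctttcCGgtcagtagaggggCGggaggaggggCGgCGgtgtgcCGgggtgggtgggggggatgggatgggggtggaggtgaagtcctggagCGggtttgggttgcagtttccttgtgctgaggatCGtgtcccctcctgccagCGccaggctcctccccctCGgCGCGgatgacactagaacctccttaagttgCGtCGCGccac

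The members were transcribed at low levels, and a few of them supplied most of the signal. Gata4, a zinc finger factor of endoderm and heart, had the highest mean over all libraries at 11.85 CPM. Gata6, its partner in primitive endoderm, followed at 5.91 CPM, and Tbx20, a T-box factor of the heart, at 4.93 CPM. Eomes averaged 4.175 CPM, T 3.38 CPM and Pax2 1.29 CPM, and every other member averaged under 1 CPM. Per kilobase of gene, Eomes (0.526 CPM per kb) and T (0.419 CPM per kb), the T-box factors of the primitive streak, stood above Gata4 (0.256 CPM per kb). At the other end, Olig2, a motor neuron and oligodendrocyte factor, had 10 fragments in the 58 libraries together, Dlx5 had 15 and Cdx2, the trophectoderm factor, had 19. A count of 0 in 1 library allows up to 3 fragments, which is 0.217 CPM in WT NPC day 3 library 1, and this covers counting error only. In the mm10 build the counted gene bodies are chr14:63198914-63245260 for Gata4, chr18:11052509-11085635 for Gata6, chr9:24720811-24774303 for Tbx20, chr9:118478188-118486132 for Eomes and chr17:8434422-8442496 for T, introns included.

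Of the 34 members, 19 passed the filter on low counts and were tested. The 15 that did not were Cdx2, Foxa1, Mixl1, Gsc, Nkx2-5, Hand1, Hand2, Nkx2-2, Nkx6-1, Lhx5, Olig2, Pax9, Six2, Msx1 and Dlx5. Summed, these 15 genes stood at 1.26 to 3.06 CPM (median 1.89) at ES day 0, 1.31 to 3.13 (1.74) at ES day 1, 0.314 to 1.46 (0.904) at NPC day 3 and 0.388 to 2.03 (1.09) at NPC day 6. Medians of the untested genes were thus lower at both NPC days than in ES cells, and their ranges overlapped. Nkx2-2, Nkx6-1, Lhx5 and Olig2, which pattern the neural tube, are among them and stayed at or under 0.436 CPM in each library.

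The sum of all 34 members was 40.0 CPM at the median of 13 ES day 0 libraries (range 21.5 to 60.3), 35.4 CPM at ES day 1 (22.1 to 64.1), 20.5 CPM over 16 NPC day 3 libraries (13.5 to 59.0) and 32.4 CPM over 16 NPC day 6 libraries (19.7 to 186). Without Gata4 and Gata6 the medians were 27.4, 26.6, 12.8 and 18.3 CPM, and the highest NPC day 6 library was PCGF35 untreated 1 at 57.3 CPM. The NPC day 3 sum without these 2 genes, 7.69 to 17.3 CPM, hardly met the ES day 0 range of 15.8 to 41.7 CPM. Lines differed at NPC day 6. Against ES day 0 of the same series, the sum of 34 members changed on the log2 scale by 2.26 in untreated and 2.36 in treated PCGF35, by 0.138 and 0.0851 in PCGF35_SPOC, by -0.981 in SPOC and by -0.915 in DelPID_SPOC. Each SPOC change from ES includes clone C11 in the ES group only. At ES day 0 C11 stood at 60.3 CPM, D9 at 40.0 and H1 at 47.8. At NPC day 6 D9 was at 25.2 and H1 at 24.1 CPM. Averaged over the 6 series the log2 ratio was 0.49 (SD within groups 0.60).

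**Figure D1:**
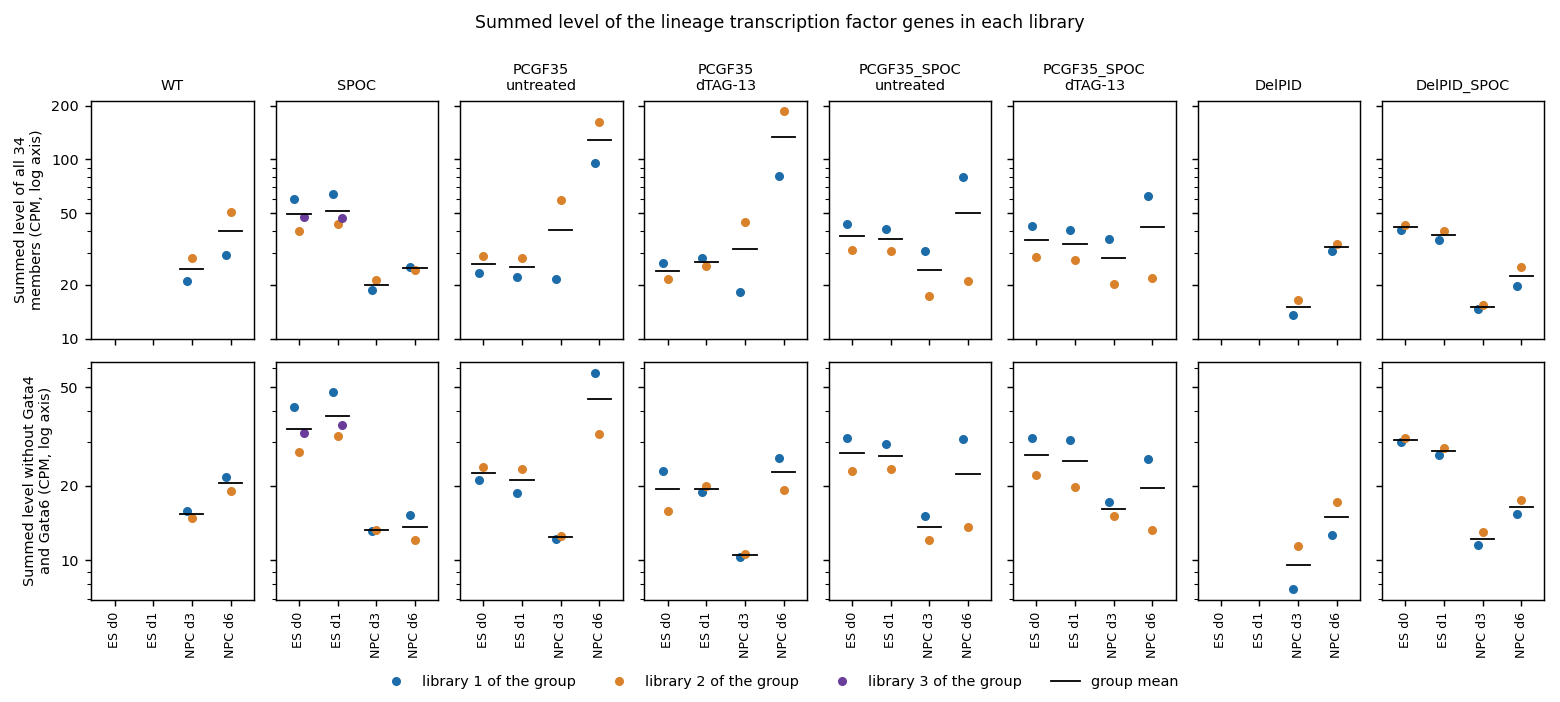
Summed level of all 34 members (upper row) and of the 32 without Gata4 and Gata6 (lower row) in CPM on a log axis, by line, treatment and day. Points are libraries and bars are group means, and the PCGF35 libraries at NPC day 6 stand highest, up to 186 CPM in the upper row.

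The heat map of group means shows the same unevenness gene by gene. Its brightest cells are those of Gata4 and Gata6 in PCGF35 and of T in untreated PCGF35, all at NPC day 6, and the rows of the untested members stay near the floor of the colour scale.

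**Figure D2:**
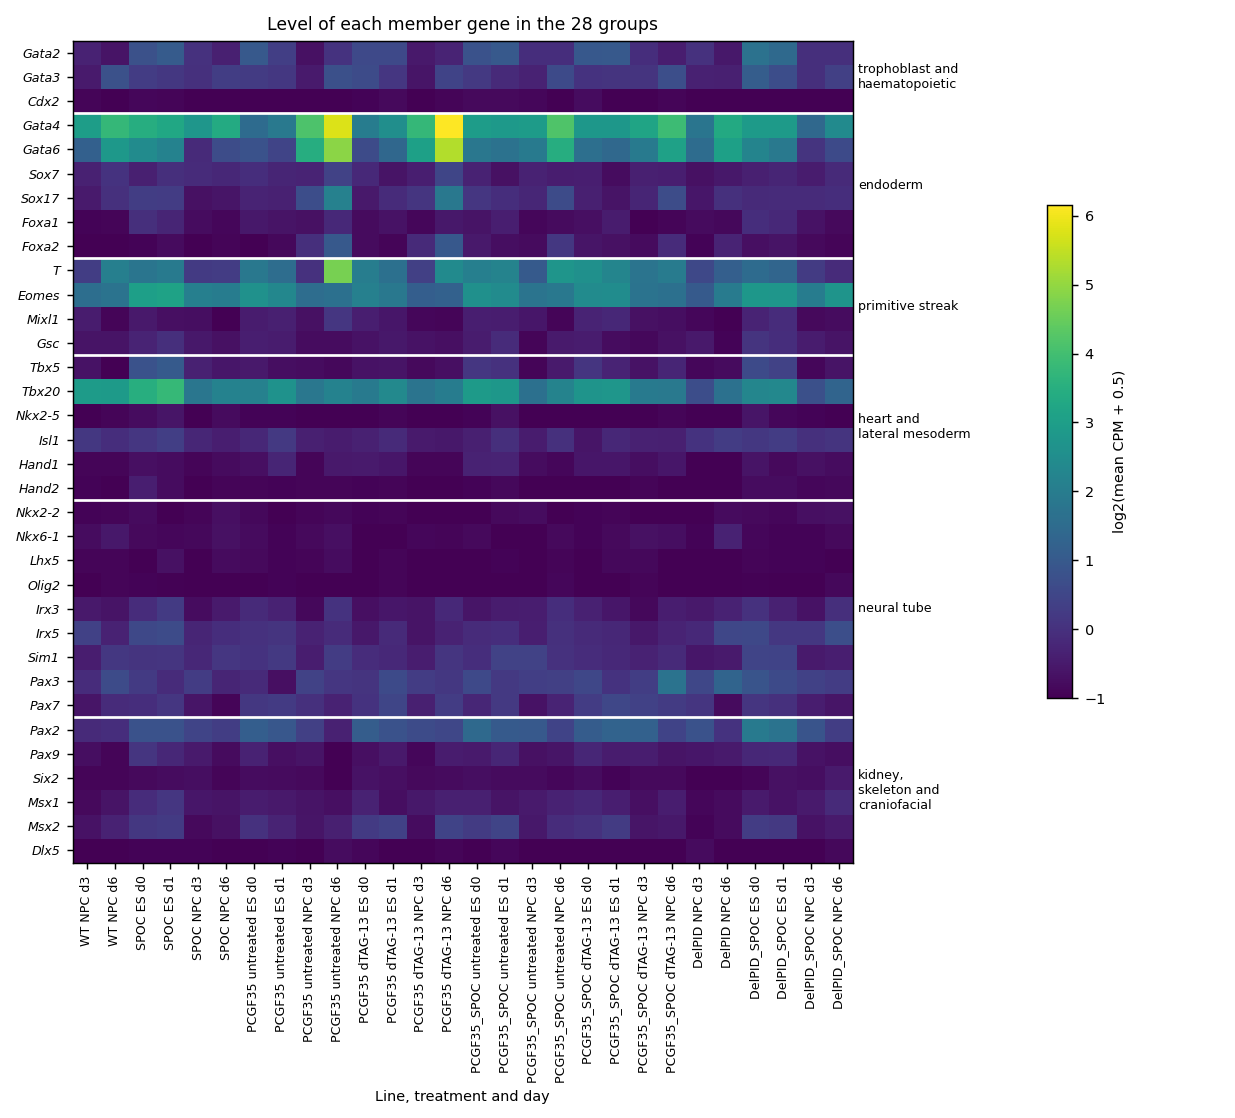
Mean level of each of the 34 members in the 28 groups, as log2 of mean CPM plus 0.5, with genes ordered by role and groups by line, treatment and day. Gata4 and Gata6 are brightest in PCGF35 and T in untreated PCGF35, each at NPC day 6, and Eomes and Tbx20 are visible in all groups.

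Degradation of PCGF3/5 by dTAG-13 addressed whether loss of these PRC1 subunits changes transcription of the members. Per the study, dTAG-13 stayed in the medium during the whole NPC protocol. The days averaged here therefore differ in exposure, which was longer in NPC than in ES libraries. Averaged over the 4 days, 0 of 19 members and 0% of all genes tested were called in PCGF35 at an adjusted p of 0.05 (edgeR's quasi-likelihood test, Benjamini-Hochberg over 16227 genes). At an unadjusted p under 0.05 there were 2 of 19 members (Eomes and Irx5), beside 4.89% of all genes. In PCGF35_SPOC 0 of 19 members and 0% of genes were called, with 2 members (Sim1 and Pax7) and 1.9% of genes at the unadjusted threshold. DESeq2 also called 0 members in every dTAG-13 comparison. The median log2 fold change over the tested members was -0.085 in PCGF35 and -0.104 in PCGF35_SPOC, beside 0.006 and -0.002 over all genes, and the summed level of 34 members changed by -0.09 (SD 0.62) and -0.02 (SD 0.73).

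By single day, in PCGF35 0 members were called on any day in the fit of group means, and the counts at unadjusted p under 0.05 were 2 at ES day 0 (Irx3 and Irx5, beside 2.42% of all genes), 1 at ES day 1 (Pax3, 0.407%, at 1.85 and 0.187 CPM treated against 0.173 and 0.0483 CPM untreated, the highest value lying in the library with Cast Xist), 0 at NPC day 3 (1.44%) and 2 at NPC day 6 (T and Pax2, 4.66%). In PCGF35_SPOC 0 members were called, and the unadjusted counts were 0 at ES day 0 (0.191%), 0 at ES day 1 (0.191%), 3 at NPC day 3 (Irx3, Sim1 and Pax7, 0.906%) and 1 at NPC day 6 (Pax3, 2.67%). For the difference of the dTAG-13 effect between the lines, 0 of 19 members passed at an adjusted p of 0.05, and 0 at the unadjusted threshold, where 1.05% of all genes passed. Of 20 genes for Polycomb subunits, 0 were called in any of these comparisons. In each of them 0% of all genes were called at an adjusted p of 0.05, so this says nothing particular about the subunits.

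Eomes was lower with dTAG-13 in each of 8 matched PCGF35 pairs, from 5.33 to 4.95 CPM and from 5.85 to 2.66 at ES day 0, from 3.87 to 2.70 and from 5.03 to 3.62 at ES day 1, from 2.92 to 2.32 and from 2.00 to 1.10 at NPC day 3 and from 3.21 to 1.74 and from 1.96 to 1.93 at NPC day 6. The treated and untreated ranges overlapped over all days, and within single days only at NPC day 3. In the fit of group means, which does not use the pairs, the day-averaged log2 difference was -0.50 ± 0.19 (SE, 8 libraries against 8, adjusted p = 0.993). Isl1, a LIM homeobox factor of heart and motor neurons, Irx5 and Sim1 were each lower in CPM in 7 of 8 pairs. These genes had few fragments, and some of these pairs had equal counts and differed only in depth. Library 2 had 8 fragments of Isl1 treated and untreated at ES day 0, and 2 and 2 at NPC day 6. Sim1 had 12 and 12 in library 2 at ES day 0. Gata4 was higher in 6 of 8 pairs, with a log2 difference of 0.34 ± 0.36 (adjusted p = 0.994). In PCGF35_SPOC, Eomes was lower in 6 of 8 pairs with a log2 difference of -0.10 ± 0.19, and Pax7, a factor of dorsal neural tube and muscle stem cells, was higher in 7 of 8 with 1.24 ± 0.43 (adjusted p = 1).

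T (Brachyury) is a defining factor of the primitive streak and early mesoderm. At NPC day 6 it stood at 41.0 and 9.36 CPM in untreated PCGF35 and at 9.23 and 0.402 CPM with dTAG-13. Within the pairs this is 4.44 times and 23.3 times lower with dTAG-13, while the untreated library 2 and the treated library 1 were nearly level. The fit of group means gave a log2 difference of -2.36 ± 0.88 (adjusted p = 0.981). With the replicate number as a block, it was -2.42 with an adjusted p of 0.0286 (edgeR), and T was the 1 member called where 0.961% of all genes were. This block is a shift between the numbered libraries of a line, shared over all its days. It does not pair treated and untreated cultures within a day. In PCGF35_SPOC, T at NPC day 6 was 10.2 CPM untreated and 6.32 CPM treated in clone F10, and 1.98 and 0.527 CPM in clone F6. At ES day 0 the order was not the same, with 2.73 and 3.52 CPM untreated and 4.55 and 2.61 CPM treated in PCGF35.

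**Figure D3:**
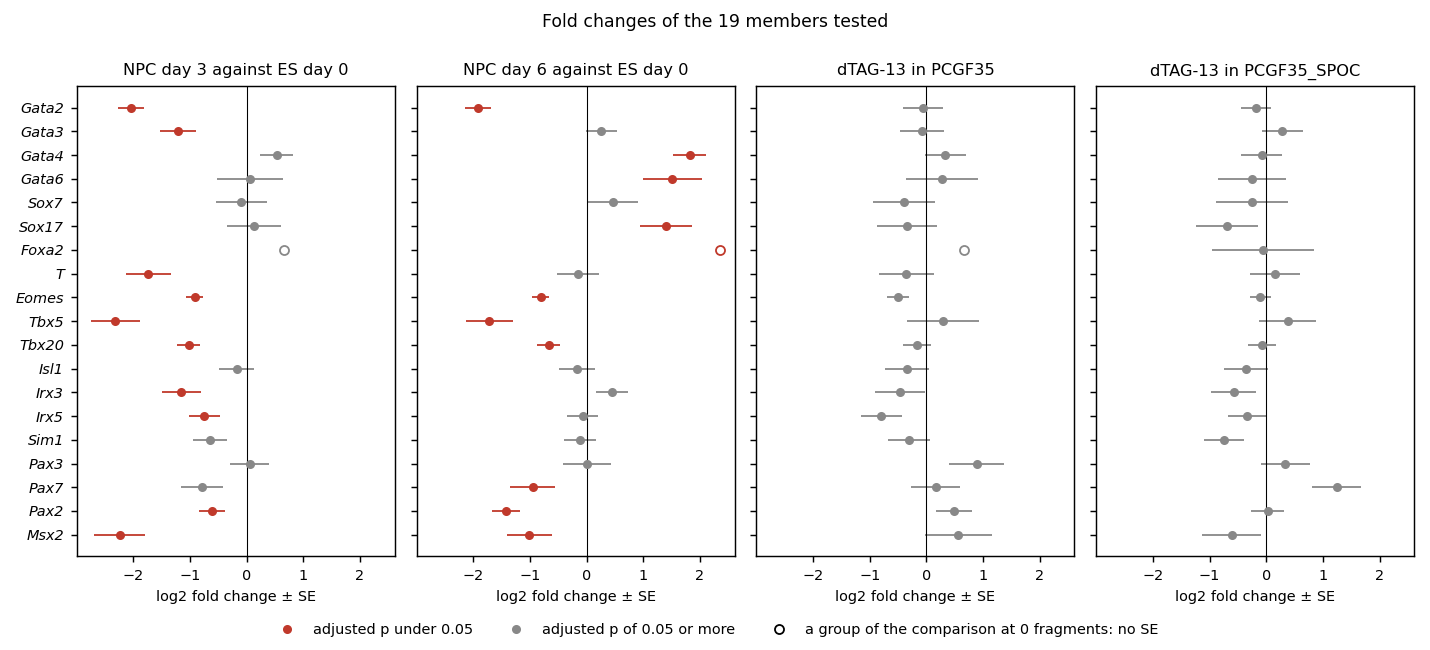
Log2 fold changes with SE of the 19 tested members for NPC day 3 and NPC day 6 against ES day 0 (mean of 6 series) and for dTAG-13 against untreated in PCGF35 and PCGF35_SPOC (mean of 4 days). Red marks an adjusted p under 0.05, which 10 members pass in the first panel, 11 in the second and 0 in the dTAG-13 panels, and hollow points have a group at 0 fragments and no SE.

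In ES cells after 1 day of doxycycline, against day 0, 0 of 19 members were called (0.0924% of all genes, edgeR), DESeq2 called 0, and at an unadjusted p under 0.05 there was 1 (Isl1, log2 difference 0.57 ± 0.27), beside 4.05% of genes.

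More members were called between NPC and ES day 0 libraries. The NPC libraries had doxycycline and ES day 0 had none, so culture, time and Xist induction cannot be told apart in these comparisons. At NPC day 3 against ES day 0, averaged over the 6 line and treatment series read on both days, 10 of 19 members fell and 0 rose at an adjusted p of 0.05, beside 29.2% of all genes that fell and 26.4% that rose. PCGF35 and PCGF35_SPOC each enter this average both treated and untreated, and the fit takes these parallel cultures as independent. The median log2 fold change over the 19 members was -0.745, beside -0.018 over all genes. Of 44 other Polycomb-target lineage factors tested, 15 fell and 9 rose with a median of -0.474, and Tlx1 (-3.41), Tfap2a (2.73) and Emx1 (-2.48) had the largest changes. The 10 members came from each role except endoderm. With a block for clones and replicate numbers 12 fell and 1 rose, where 64.2% of all genes were called, the additions being Pax7 (-0.777), Sim1 (-0.659) and Gata4 (0.483, adjusted p = 0.0336). In single series, 5 members fell in SPOC (29.8% of all genes called), 4 fell in DelPID_SPOC (17.6%) and 1 fell in treated PCGF35 (6.78%). In untreated PCGF35 (19.6%) 3 fell and 2 rose, Gata4 by 2.99 and Foxa2 from a group at 0. In PCGF35_SPOC 0 were called untreated (4.89%) and 0 treated (2.53%).

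Gata2, a factor of trophoblast and blood progenitors, ran from 0.676 to 3.63 CPM (median 1.29) at ES day 0, from 0.0703 to 0.646 (0.390) at NPC day 3 and from 0 to 0.762 (0.318) at NPC day 6. NPC day 3 did not overlap ES day 0, and NPC day 6 barely did. The log2 fold change was -2.04 ± 0.23 on day 3 (adjusted p = 4.29e-09) and -1.91 ± 0.22 on day 6 (adjusted p = 1.03e-08). Gata3, of trophoblast and T cells, fell on day 3 (-1.21 ± 0.31) and was at 0.26 ± 0.27 on day 6 (adjusted p = 0.421).

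Eomes, which acts in trophoblast and in the streak that gives endoderm, ran from 2.66 to 9.65 CPM (median 5.33) at ES day 0, from 1.10 to 4.64 (2.70) at NPC day 3 and from 1.52 to 6.54 (3.02) at NPC day 6. The ranges overlapped, and the highest ES value was in SPOC. It fell by 0.91 ± 0.15 on the log2 scale on day 3 and by 0.81 ± 0.15 on day 6 (adjusted p = 3.13e-05). T ran from 2.15 to 7.68 CPM (median 2.82) at ES day 0 and from 0.376 to 4.79 (0.727) at NPC day 3, where the libraries above 2 CPM were those of PCGF35_SPOC clone F10. It fell by 1.74 ± 0.40 (adjusted p = 0.000399), and at NPC day 6 it spread from 0.270 to 41.0 CPM with a log2 fold change of -0.14 ± 0.37.

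Tbx20 ran from 2.3 to 15.6 CPM (median 4.66) at ES day 0, from 3.39 to 19.9 (4.80) at ES day 1, from 0.785 to 7.34 (2.89) at NPC day 3 and from 1.89 to 7.80 (3.57) at NPC day 6. The highest ES values were in SPOC, WT libraries were highest at both NPC days, and the ranges overlapped. It fell by 1.02 ± 0.21 on day 3 and by 0.67 ± 0.20 on day 6 (adjusted p = 0.00553). Tbx5, which marks the heart fields and the forelimb, ran from 0.0562 to 1.85 CPM (median 0.594) at ES day 0 and from 0 to 0.602 (0.122) at NPC day 6, and fell by 2.31 ± 0.43 on day 3 and by 1.72 ± 0.41 on day 6 (adjusted p = 0.00063). Tbx5 had at most 8 fragments in an NPC day 6 library, and its median there lay below the level of 3 fragments. Isl1 did not pass on either day (-0.18 ± 0.31 and -0.17 ± 0.31).

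Among neural tube members, Irx3 (-1.15 ± 0.34) and Irx5, Iroquois factors, fell on day 3 and did not pass on day 6 (0.45 ± 0.29 and -0.06 ± 0.27). Irx3 lost its call when 1 library was left out (treated PCGF35 ES day 0 library 1, adjusted p = 0.0665), and Irx5 when that library or treated PCGF35_SPOC ES day 0 library 1 was (adjusted p up to 0.105). Pax7 ran from 0.290 to 0.866 CPM (median 0.450) at ES day 0 and from 0 to 0.973 (0.248) at NPC day 6, with overlap, and fell by 0.95 ± 0.40 (adjusted p = 0.0389). That call was lost on leaving out any 1 of 12 of the 25 libraries (adjusted p up to 0.0925). Pax3 was at 0.01 ± 0.42 on day 6, with its highest value, 5.29 CPM, in treated PCGF35_SPOC clone F10. Of the 5 neural tube members tested, 0 rose on either day.

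Pax2, a kidney and midbrain-hindbrain factor, ran from 1.09 to 4.27 CPM (median 1.71) at ES day 0, from 0.289 to 2.73 (0.933) at NPC day 3 and from 0.252 to 1.28 (0.574) at NPC day 6. The day 6 range met the ES range only at its top, and the log2 fold change was -1.42 ± 0.25 on day 6 (adjusted p = 1.17e-05). Its smaller day 3 fall was lost without any 1 of 4 libraries (adjusted p up to 0.0561), namely library 1 of treated PCGF35 or PCGF35_SPOC at NPC day 3, or library 2 of treated PCGF35_SPOC or DelPID_SPOC at ES day 0. Msx2, a homeobox target of BMP signalling in skull and tooth, ran from 0.0601 to 1.13 CPM (median 0.541) at ES day 0, from 0 to 0.313 (0.0627) at NPC day 3 and from 0 to 0.908 (0.254) at NPC day 6. At NPC day 3 it had at most 6 fragments in a library, and its median lay below the level of 3 fragments. It fell by 2.23 ± 0.45 on day 3 and by 1.0 ± 0.40 on day 6 (adjusted p = 0.03), a call lost without any 1 of 8 libraries (adjusted p up to 0.0735). Without the filter on low counts 3 further members fell on day 3, where 43.4% of all genes were called, namely Mixl1 (-1.31), Pax9 (-1.05) and Foxa1 (-1.79). On day 6, with 46.1% of genes called, Mixl1 (-1.92) and Pax9 (-1.78) fell, and in untreated PCGF35, with 21.2% called, Pax9 (-5.31) fell.

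At NPC day 6 against ES day 0, 7 members fell (Gata2, Eomes, Tbx5, Tbx20, Pax7, Pax2 and Msx2) and 4 rose, beside 29.4% of all genes in each direction. The 4 that rose, Gata4 (1.82 ± 0.29, adjusted p = 3.11e-06), Gata6 (1.51 ± 0.52, adjusted p = 0.0125), Sox17 (1.40 ± 0.46, adjusted p = 0.00888) and Foxa2 (2.36, adjusted p = 0.0336, with 1 group at 0 and no SE), are all endoderm factors. Sox7 (0.47 ± 0.44) did not pass, and Foxa1 was not tested. Of the other lineage factors 7 rose and 13 fell, with Tfap2a (2.96), Tlx1 (-2.86) and Pou3f3 (-2.71) the largest. In an average without the PCGF35 line, chosen after the data were seen, 0 members rose and 7 fell, where 49.8% of all genes were called, and Gata6 was at -0.20. In single series, 4 members rose in treated PCGF35 (Gata4, Gata6, Sox17 and Foxa2, with 11.4% of all genes called), 4 fell in SPOC (34.1%), 3 fell in DelPID_SPOC (19.2%), 1 fell in treated PCGF35_SPOC (5.37%) and 0 were called in untreated PCGF35_SPOC (7.37%). Leaving out 1 library ended the call of Gata6 in 3 of 25 cases, of Sox17 in 2 and of Foxa2 in 4 (adjusted p up to 0.126, 0.123 and 1). Untreated PCGF35_SPOC NPC day 6 library 1 was such a library for all 3 genes, its treated counterpart and DelPID_SPOC NPC day 6 library 2 for Gata6 and Foxa2, and SPOC NPC day 6 library 1 for Sox17 and Foxa2.

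In untreated PCGF35 alone, 5 of 19 members rose and 3 fell from ES day 0 to NPC day 6, beside 13.6% and 15.9% of all genes. Gata4 went from 1.49 and 3.19 CPM to 25.5 and 83.3 CPM, with 5.97 and 28.8 CPM at NPC day 3. The groups did not overlap, and the log2 fold change was 4.58 ± 0.81 (adjusted p = 0.000118). With dTAG-13 it went from 2.42 and 4.59 CPM to 33.5 and 108 CPM. Gata6 went from 0.558 and 1.89 CPM to 12.7 and 46.4 CPM untreated (4.62 ± 1.36, adjusted p = 0.0108) and from 0.955 and 1.13 CPM to 21.3 and 58.9 CPM with dTAG-13. Library 2 was the higher in each of these NPC pairs.

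Sox17, an SRY-box factor of endoderm, went from 0.372 and 0.271 CPM to 1.20 and 6.64 CPM untreated (3.59 ± 0.99, adjusted p = 0.00683) and from 0.225 and 0.180 CPM to 2.95 and 3.38 CPM with dTAG-13. Foxa2, a forkhead factor that opens chromatin in endoderm and node, had 0 fragments at ES day 0 and 0.945 and 2.07 CPM at NPC day 6, at least 15.6-fold higher when set against 3 fragments over the ES group (adjusted p = 0.00311). With dTAG-13 it was at 0.112 and 0.0450 CPM in ES day 0 and at 0.832 and 2.09 CPM at NPC day 6. T went from 2.73 and 3.52 CPM to 41.0 and 9.36 CPM untreated (3.01 ± 0.91, adjusted p = 0.0124). All 5 genes were higher in both untreated NPC day 6 libraries than in either ES day 0 library. Gata2 (-1.53 ± 0.54), Eomes (-1.07 ± 0.38) and Pax2 (-2.54 ± 0.71) fell.

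With 2 libraries a group, several of these calls depended on 1 library. Those of Gata4 and Foxa2 held without any of the 4, and that of Pax2 was lost without untreated NPC day 6 library 1. Gata6 lost its call without ES day 0 library 1 or NPC day 6 library 2 (adjusted p up to 0.107), Sox17 without ES day 0 library 2 or NPC day 6 library 2 (0.247), T without either ES day 0 library or NPC day 6 library 1 (0.27), Gata2 without library 1 of either group (0.377) and Eomes without any of them (0.241). In the test of whether these changes differed with dTAG-13, 0 of 19 members and 0% of all genes were called (edgeR, and 0 by DESeq2). T alone passed unadjusted, with -2.58 ± 1.24, beside 2.73% of genes.

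Markers of another cell type moved with the endoderm members. Extraembryonic endoderm, the layer that in the embryo expresses Gata4, Gata6, Sox17 and Foxa2 together, was represented by Dab2, Lama1, Lamb1, Col4a1, Col4a2, Pdgfra, Cubn and Sparc. In untreated PCGF35, 7 of these 8 rose from ES day 0 to NPC day 6 (Cubn did not pass), and their sum went from 335 and 470 CPM to 2050 and 6850 CPM. With dTAG-13 it reached 2710 and 8630 CPM. Over all ES day 0 libraries the sum was 320 to 1260 CPM. At NPC day 6 it was 709 and 1287 CPM in WT and 797 and 1063 CPM in DelPID. In SPOC it was then 406 and 500 CPM, and in DelPID_SPOC 352 and 737 CPM. The 8 feeder fibroblast markers, summed, stood at 4.02 to 45.6 CPM at ES day 0 and at 6.84 to 325 CPM at NPC day 6, the highest being treated PCGF35_SPOC clone F10. In untreated PCGF35 their sum went from 11.7 and 7.15 CPM to 164 and 55.4 CPM, and 4 of 7 tested rose (Col5a2, Col1a2, Col1a1 and Dcn) while Thy1 fell. Over all NPC day 6 libraries the highest values were 187 CPM for Col5a2, 106 for Col1a2, 22.1 for Col1a1 and 11.3 for Col3a1. Dcn reached 3.51 CPM, Thy1 2.86, Postn 1.76 and Lum 0.135 CPM. The part of either marker list in the result was not tested.

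**Figure D4:**
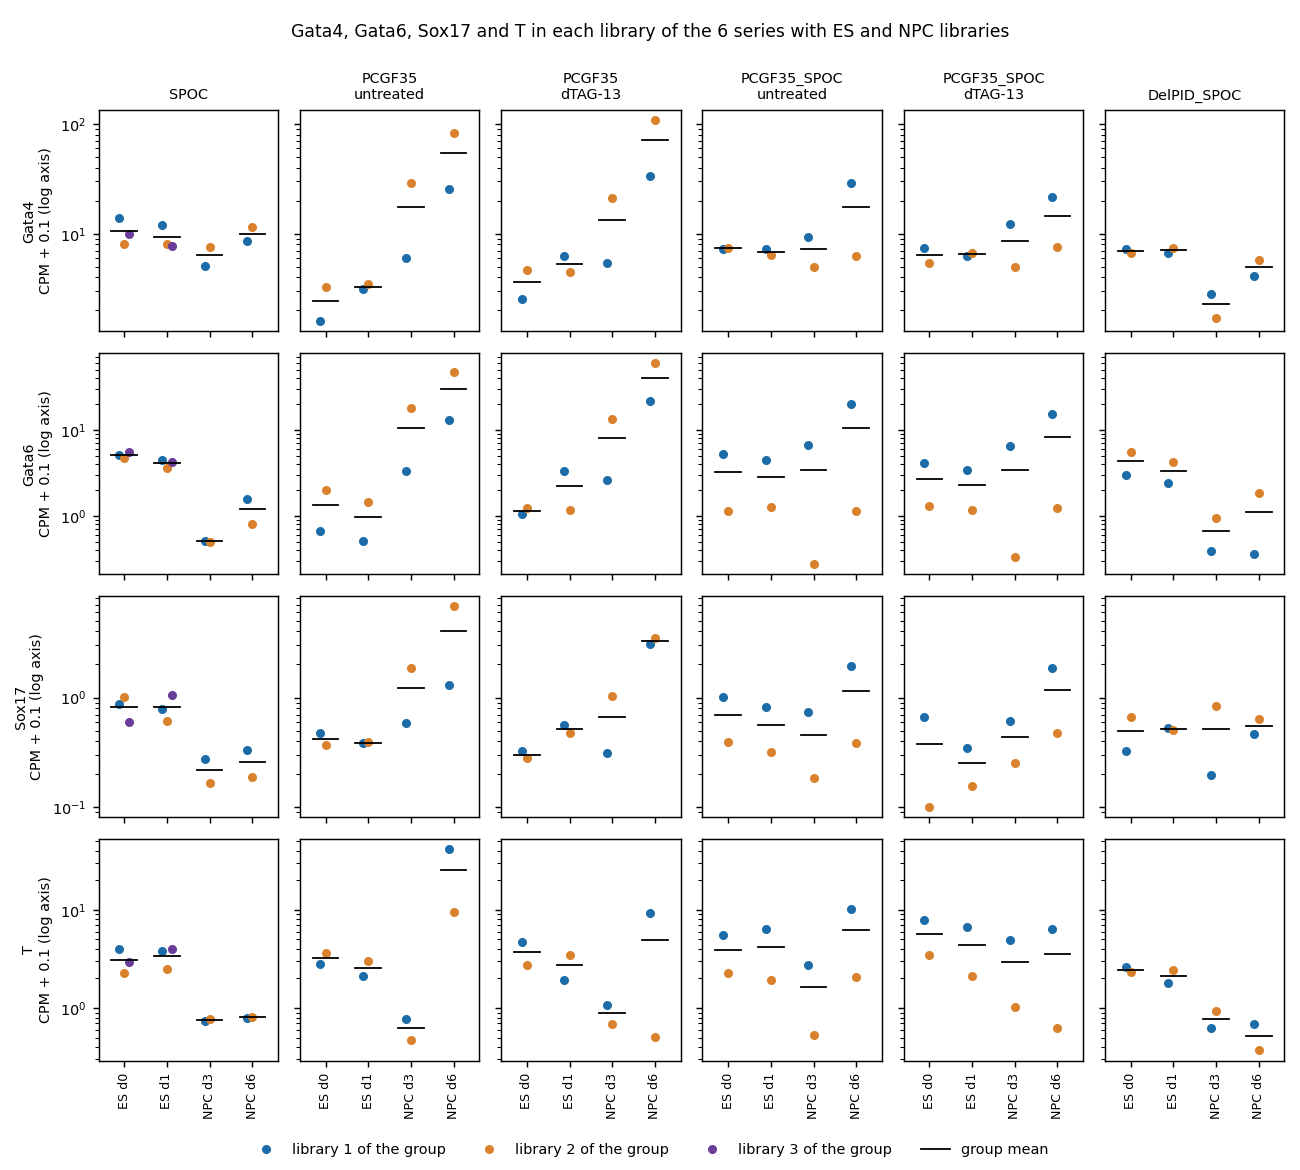
Gata4, Gata6, Sox17 and T in each library of the 6 series with ES and NPC libraries, as CPM plus 0.1 on a log axis, by day. Points are libraries and bars are group means, and all 4 genes rose to NPC day 6 in untreated PCGF35, while in PCGF35_SPOC Gata6 was above 2 CPM in clone F10 and not in clone F6.

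The clones of PCGF35_SPOC parted in the same genes. At NPC day 6 Gata4 stood at 28.8 CPM untreated and 21.6 CPM treated in clone F10, and at 6.13 and 7.45 CPM in clone F6. Gata6 stood at 19.8 and 15.0 CPM in F10 and at 1.04 and 1.13 CPM in F6, and Foxa2 at 1.22 and 0.851 CPM in F10 and at 0 in F6. The treated and untreated libraries of a clone were close, and the clones did not overlap. The endoderm marker sum was 2500 and 1540 CPM in F10 and 297 and 242 CPM in F6. In ES day 0 libraries Gata6 already stood at 5.14 and 3.98 CPM in F10 and at 1.04 and 1.19 CPM in F6. The test of whether the NPC day 6 change differed between untreated PCGF35_SPOC and PCGF35 called 0 of 19 members and 0% of genes (edgeR, and 0 by DESeq2), with Gata4 (-3.28 ± 1.04) and Foxa2 at an unadjusted p under 0.05, beside 6.5% of genes. With a block for clones and replicate numbers Gata4 was called (-3.40, adjusted p = 0.015), beside 0.758% of genes.

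In SPOC and DelPID_SPOC alone, 0 endoderm members rose. Gata4 in SPOC was 13.7, 8.0 and 9.79 CPM at ES day 0 and 8.40 and 11.4 CPM at NPC day 6, which overlapped. Gata6 was 4.92, 4.57 and 5.42 CPM at ES day 0 and 1.48 and 0.710 CPM at NPC day 6, all lower, with a log2 fold change of -2.08 ± 1.29 in that series (adjusted p = 0.216). In DelPID_SPOC Gata6 was 2.87 and 5.47 CPM at ES day 0 and 0.264 and 1.76 CPM at NPC day 6 (-2.15 ± 1.33, adjusted p = 0.267), and Gata4 7.18 and 6.60 CPM and then 4.01 and 5.68 CPM. WT, which had no ES libraries, had 5.4 and 20.5 CPM of Gata4 and 2.10 and 11.1 CPM of Gata6 at NPC day 6, and its Gata4 range overlapped that of SPOC.

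Comparisons of lines on the same days gave 1 member. Per the study, WT was differentiated in parallel with SPOC and DelPID with DelPID_SPOC, but the labels do not tie a WT or DelPID library to a clone, so these comparisons are unpaired. SPOC against WT in NPC called 0 of 19 members (1.75% of all genes), DESeq2 called 0, and 3 members (Gata6, Tbx5 and Tbx20) passed unadjusted, beside 16.9%. When the fit was made on the libraries of these lines alone, 2 of 17 tested fell, Gata6 and T, where 10.7% of all genes were called. PCGF35_SPOC against PCGF35, both untreated, called 0 in ES (0.0801%), with 3 unadjusted (Gata4 1.32 ± 0.53, Tbx5 1.86 ± 0.62 and Pax3 1.87 ± 0.71), beside 14.7%, and 0 in NPC (0.179%), with 4 unadjusted (Gata4, Sox17, Foxa2 and Pax2), beside 9.11%. DelPID_SPOC against DelPID called 0 (2.6%), with 3 unadjusted (Gata3, Gata6 and Eomes), beside 19%, and Eomes (0.89 ± 0.28) was called when either of 2 libraries was left out, DelPID NPC day 6 library 2 or DelPID_SPOC NPC day 3 library 2. DESeq2 called 0 in each of these 3 comparisons.

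DelPID against WT in NPC called Tbx20 alone, beside 2.9% of all genes that fell. Tbx20 was 6.87 and 7.34 CPM in WT and 0.785 and 1.42 CPM in DelPID at NPC day 3, and 7.80 and 5.98 CPM in WT and 3.05 and 2.3 CPM in DelPID at NPC day 6. WT was higher on each day without overlap, and the log2 difference over both days was -1.98 ± 0.40 (adjusted p = 0.00176). Without any 1 of the 8 libraries, the shallow DelPID library included, the adjusted p was at most 0.0374. Every library of the other NPC lines was also below both WT libraries of its day, with 2.58 and 3.46 CPM in SPOC and 1.35 and 1.02 CPM in DelPID_SPOC at NPC day 3.

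Across the 58 libraries the members fell into sets that moved together, given as a description because libraries share lines, days and depth. The highest Pearson correlations of log2(CPM + 0.5) were between Gata6 and Gata4 (0.852), Sox17 and Gata6 (0.805), Foxa2 and Sox17 (0.799) and Foxa2 and Gata4 (0.794). A second set held Eomes and Gata2 (0.728), Tbx5 and Eomes (0.718) and Tbx5 and Gata2 (0.678), genes that were higher in ES cells. The lowest values were between Eomes and Foxa2 (-0.392) and between Pax2 and Gata4 (-0.374).

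Strain differences allowed fragments to be assigned to the Dom or the Cast allele. Over all libraries 17 members had at least 100 assigned fragments. Gata4 had 55.5% from Dom over 6123 fragments and Eomes 52.2% over 1803, beside a median of 51.4% and 51.6% for other genes of their chromosomes. Tbx20 had 47.4% over 2462, which pools lines with shares from 62.1% in WT and 57.6% in PCGF35_SPOC to 38.3% in SPOC and 32.9% in DelPID_SPOC. Single libraries ran from 20.0% to 91.7% in PCGF35_SPOC and from 32.1% to 77.8% in PCGF35, wider than the range between lines. In WT they ran from 58.8% to 63.2%. Gata3 stood apart at 84.9% Dom over 324 fragments (other genes of chromosome 2, 52.2%), and was between 68.4% and 100% in each of the 6 lines, the extremes resting on 19 and 6 fragments. Pax2 lay at the other side, with 21.0% Dom over 667 fragments (chromosome 19, 52.3%) and between 17.9% and 38.5% in each line. T was at 35.1% Dom over 1919 fragments, from 19% in DelPID_SPOC to 39.6% in PCGF35_SPOC. These shares pool libraries, no test was made, and what strain-specific alignment adds at single genes was not tested.

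**Figure D5:**
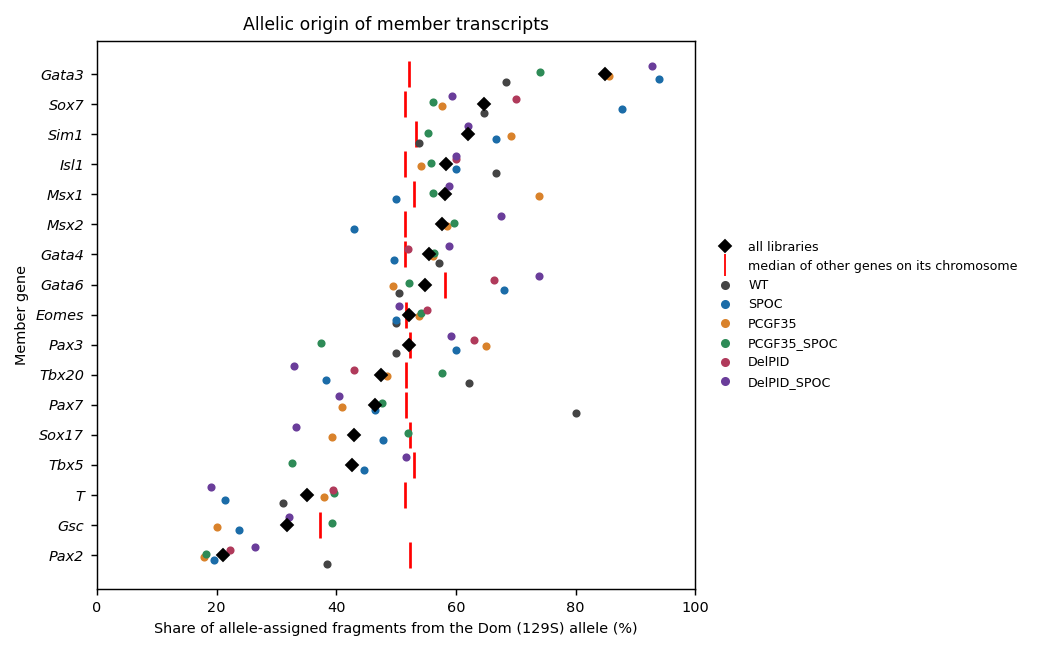
Share of allele-assigned fragments from the Dom (129S) allele for the 17 members with at least 100 such fragments. Diamonds pool all libraries, coloured points are lines and red bars are the median of other genes on the same chromosome, and Gata3 (84.9%) and Pax2 (21.0%) lie furthest from their bars.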

How the data were processed

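ChrRNA-seq had been made from 58 cultures. Fragment counts per gene were deposited by the authors, who per the labels and methods removed rRNA reads (Bowtie2 2.3.2), aligned to strain-masked mm10 (STAR 2.4.2a), split reads by allele and counted fragments over gene bodies by strand with featureCounts (the version is not given in the sources used here); tool versions come from the submitters' processing notes. Columns of allele-assigned counts were used for the allele shares, and a deposited table of X-linked allelic ratios was not used.

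Groups came from the sample titles. The main test was edgeR 4.0.16 (R 4.3.3), a quasi-likelihood fit of 28 group means over 58 libraries with TMM scaling and the default filter on low counts, which kept 16227 of 22556 genes, with Benjamini-Hochberg adjustment over them at 0.05. SE is the log2 fold change divided by the root of F, and is not given where a group had no fragment. In all, 22 comparisons were made. Alternatives were DESeq2 1.42.0, its size factors, no filter, the compared lines alone, a clone or replicate block and leaving out each library. The block was a shift per clone or replicate number within a line, shared over all days of that line. CPM (fragments of a gene per M fragments of its library) was computed with Python 3.11.15, pandas 2.3.3 and matplotlib 3.10.9. Scripts were tested on simulated counts. For WT, PCGF35 and DelPID the labels only number the libraries, so p-values measure the spread between these libraries, which may be technical.

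The 34 members, the lists and the rule for naming genes were chosen with earlier results of these data known. Members may all be named; those called get their statistics (at most 8 a direction), and per-library values are given for members called at NPC day 6 and for the 3 with the highest mean CPM. Genes named outside this rule were chosen after their values were seen. Treated and untreated libraries with the same number were grown in parallel per the study or are the same clone, and their deviations from group means correlated at 0.19 to 0.66 in PCGF35 and 0.66 to 0.84 in PCGF35_SPOC, so the number was taken as a pair there. The labels do not tie WT or DelPID libraries to the clones grown beside them, so lines were compared without pairs.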

Additional observations from a re-analysis of the deposited data

Results flagged for a closer look

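The change of 4 members from ES day 0 to NPC day 6 differed between lines by a direct test of the difference (edgeR, Benjamini-Hochberg over all genes), in contrasts chosen after the data were seen. SPOC minus untreated PCGF35 gave log2 differences of -4.578 for Gata4 (adjusted p = 0.0193), -6.695 for Gata6 (0.0399), -5.605 for Sox17 (0.037) and -4.985 for T (0.0359), where 3.31% of all genes were called. DelPID_SPOC minus untreated PCGF35 gave -5.097 for Gata4 (0.00949), -6.768 for Gata6 (0.0319) and -5.408 for T (0.0218), where 6.48% of all genes were called. Both contrasts share the PCGF35 libraries, and in these libraries the extraembryonic endoderm markers stood high as well, at 2050 and 6850 CPM. SPOC at ES day 0 includes clone C11, which had no NPC library.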

How the results depend on the processing

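Under other scalings, filters, tests, blocks and fits of the compared lines alone, 103 counts of called members stayed within 1.5 times, 3 did not, and all 150 log2 fold changes of called members kept direction and call. Leaving out 1 library is not among these, and it ended calls of Pax7, Msx2, Pax2, Gata6, Sox17, Foxa2, Irx3, Irx5, Gata2, Eomes and T in at least 1 comparison. The exceptions were 1 member with the replicate block for dTAG-13 in PCGF35 at NPC day 6 (T), 1 with the block for the NPC change of PCGF35_SPOC minus PCGF35 (Gata4) and 2 for SPOC minus WT on these lines alone. The replicate block otherwise left counts within that range. Leaving out 1 library gave 4 to 5 calls in untreated PCGF35 (8 with all, beside 29.5% of all genes). It gave 0 to 1 for DelPID_SPOC minus DelPID (0 with all, beside 2.6%). The single series, added after the data were seen, gave fewer calls than the average over series. Fewer libraries enter each of them and the lines differed, and what lowered the counts was not tested. Their shares of all genes stand with the results. At NPC day 3 there were 5 in SPOC (all falls), 5 in untreated (3 falls) and 1 in treated PCGF35 (a fall), 0 in PCGF35_SPOC with or without dTAG-13 and 4 in DelPID_SPOC (all falls). At NPC day 6 there were 4 in SPOC (all falls), 4 in treated PCGF35 (all rises), 0 in untreated and 1 in treated PCGF35_SPOC, 3 in DelPID_SPOC (these 4 all falls) and 7 without the PCGF35 line (all falls). Signs reversed at day 3 for Gata3 (0.0226, treated PCGF35_SPOC), Irx3 (0.65, treated PCGF35; 0.73, untreated PCGF35_SPOC) and Pax2 (0.23, treated PCGF35_SPOC). At day 6 they reversed in SPOC for Gata4 (-0.00193), Gata6 (-2.08) and Sox17 (-2.01), in DelPID_SPOC for Gata4 (-0.52), Gata6 (-2.15) and Foxa2 (-1.47), and without the PCGF35 line for Gata6 (-0.20). They also reversed for Tbx20 (0.060 untreated, 0.092 treated PCGF35), Pax7 (0.39 in treated PCGF35, 0.0030 in treated PCGF35_SPOC) and Msx2 (0.39, treated PCGF35). The cause was not tested. At this depth the 15 untested members did not pass the filter on low counts.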
